A study of Mus musculus with 12 samples.

Results

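The release of neurotransmitter depends on a set of proteins that sit on synaptic vesicles and at the presynaptic membrane. Expression of 41 genes for these proteins was followed in the mouse hippocampus after knockdown of Hp1bp3 (heterochromatin protein 1 binding protein 3), a chromatin protein. The 41 genes were chosen by symbol from the deposited table of 22236 genes, and all 41 were found. All 41 passed the filter on low counts, which 15853 genes passed in all. They comprise 3 synapsins, 8 vesicle membrane proteins, 3 neurotransmitter transporters, 4 SNARE proteins, 5 SNARE regulators, 6 calcium sensors, 9 proteins of the active zone and vesicle priming, and 3 proteins of endocytosis.

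Libraries were made from the hippocampus of male mice aged 3 to 5 months, at least 6 weeks after injection of AAV9, an adeno-associated virus. B6 (C57BL/6J) and D2 (DBA/2J) are inbred strains. Mice of each strain received either AAV9-shRNA-Hp1bp3 (KD) or AAV9-scrmb-shRNA, a scrambled hairpin (Ctrl), so that every mouse was injected and no group was without virus. Each of the 4 groups (B6 Ctrl, B6 KD, D2 Ctrl and D2 KD) held 3 mice, and each library came from 1 mouse. Virus was placed in the dorsal hippocampus of both hemispheres and RNA was taken from homogenate of the whole hippocampus, which includes tissue that the virus did not reach. Reads of each strain were aligned to the genome of that strain, so strain and reference genome cannot be told apart in any comparison of D2 with B6.

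At a terminal, transporters fill vesicles with glutamate or GABA, and synapsins tether the vesicles into a reserve. Scaffolds such as Bassoon, Piccolo and RIM proteins mark the active zone, where Munc13 proteins prime docked vesicles. A SNARE protein on the vesicle then pairs with SNARE proteins of the membrane, complexins hold the complex, and synaptotagmins trigger fusion when calcium enters. NSF takes the complex apart, and dynamin, amphiphysin and synaptojanin act in the recovery of vesicle membrane. In the hippocampus these proteins serve excitatory terminals of granule and pyramidal cells and inhibitory terminals of interneurons.

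The libraries held 18.2 M to 39.4 M expected counts each. The target Hp1bp3 had 9372, 8826 and 9348 normalized counts in B6 Ctrl and 5539, 5429 and 7633 in B6 KD. In D2 it had 6871, 6504 and 7002 in Ctrl and 5337, 4878 and 6941 in KD, so that the library labelled D2 KD 3 lay within the D2 Ctrl range. The mean difference within strains was -0.42 on the log2 scale (exact permutation p = 0.015, 2-sided; the smallest possible with 400 assignments is 0.005). In the edgeR fit across all genes Hp1bp3 was not called for KD against Ctrl, either averaged over strains (log2 fold change -0.39 ± 0.11, adjusted p = 0.0907), in B6 (-0.54 ± 0.15, adjusted p = 0.0760) or in D2 (-0.25 ± 0.15, adjusted p = 1). A score of 15 interferon response genes (mean log2 of CPM + 1) was 2.42 to 2.79 in B6 Ctrl and 4.99 to 6.38 in B6 KD. In D2 KD 3 this score was 3.01, near the 2.73 and 2.64 of D2 Ctrl 1 and 2, whereas D2 Ctrl 3 had 3.90. These libraries therefore stand apart within their groups, and the D2 results that they move most are given with and without them. Neuron markers gave a score of 8.85 to 9.03 in B6 Ctrl, 8.63 to 8.93 in B6 KD and 8.76 to 8.99 across D2, while choroid plexus markers ran from 1.85 to 6.41 across the 12 libraries in no order of group. In RNA from whole tissue, fewer cells of a type and less RNA per cell cannot be told apart.

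Levels of the presynaptic genes, as the authors' normalized count per kb of exon, spanned a wide range. Complexin 2 (Cplx2) ranked first with a mean of 10805 per kb over the 12 libraries, followed by the SNARE protein Snap25 with 8199 per kb and the vesicular glutamate transporter Slc17a7 with 8002 per kb. Synaptophysin (Syp), a common marker of synaptic vesicles, had 7651 per kb, and the vesicle SNARE Vamp2 had 7470 per kb. Beside these steps the libraries of 1 gene spread widely, and Cplx2 itself ran from 37522 to 62277 normalized counts. At the low end stood Syn3 with 75.5 per kb, Cplx3 with 64.4, Unc13c with 58.6, Sv2c with 29.1 and Sypl2 with 24.1. Slc17a7 exceeded Slc17a6, the glutamate transporter of subcortical afferents, which had 133 per kb, and also Slc32a1, the vesicular GABA transporter, with 714 per kb.

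**Figure D1:**
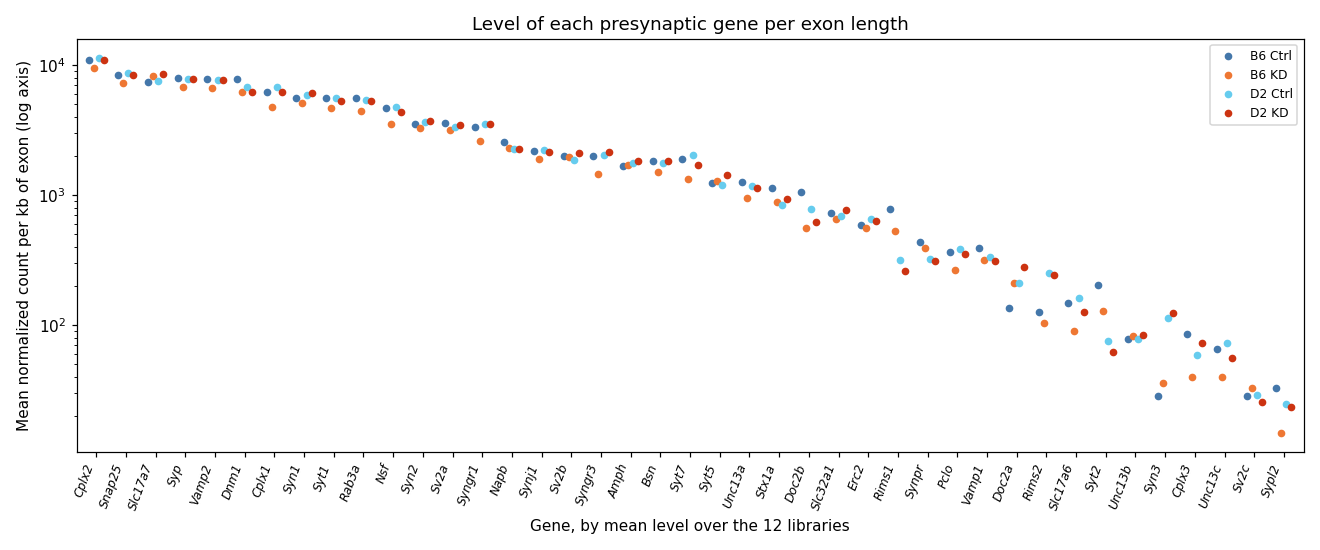
Mean normalized count per kb of exon (log axis) of the 41 presynaptic genes in B6 Ctrl, B6 KD, D2 Ctrl and D2 KD (each point the mean of 3 libraries), ordered by the mean over all 12. The groups lie close together for abundant genes such as Cplx2 (10805 per kb) and apart by strain for Rims1, Rims2, Syt2 and Syn3.

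The members also differed in how steady they were between libraries of a group. The SD within groups on the log2 scale had a median of 0.22 over the 41 genes. It was lowest for the vesicle glycoprotein Sv2a, at 0.08, and the vesicle GTPase Rab3a, at 0.08, and 20 genes were under 0.2. Only 5 genes exceeded 0.5, namely Sv2c (1.36), Slc17a6 (0.79), Cplx3 (0.77), Syt2 (0.58) and Rims1 (0.57), and these were singled out after their values were seen. Sv2c, the SV2 isoform of basal ganglia and brainstem, ran from 61.0 in D2 Ctrl 3 to 562 in B6 Ctrl 3, a 9.22-fold range that crossed all groups. Slc17a6 was lowest in D2 KD 1 (265), B6 KD 3 (293) and D2 Ctrl 3 (366), whereas all other libraries lay between 546 and 1186. Cplx3, a complexin known from retina and subplate neurons, was lowest in D2 KD 1 (59.0), B6 KD 2 (89.0), B6 KD 3 (90.6) and D2 Ctrl 3 (129). These 4 libraries also had the lowest scores of 9 neocortex markers, at 3.77 in D2 KD 1, 4.29 in B6 KD 2, 3.97 in B6 KD 3 and 4.16 in D2 Ctrl 3, against 4.55 to 4.75 in the other libraries. Of the neocortex markers Fezf2 did not follow the score. It had 1205 normalized counts in B6 KD 3, its highest of the 12 libraries, 1180 in D2 KD 1, 978 in B6 KD 2 and 960 in D2 Ctrl 3. The part of the neocortex markers in the spread of Cplx3 and Slc17a6 was not tested.

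**Figure D2:**
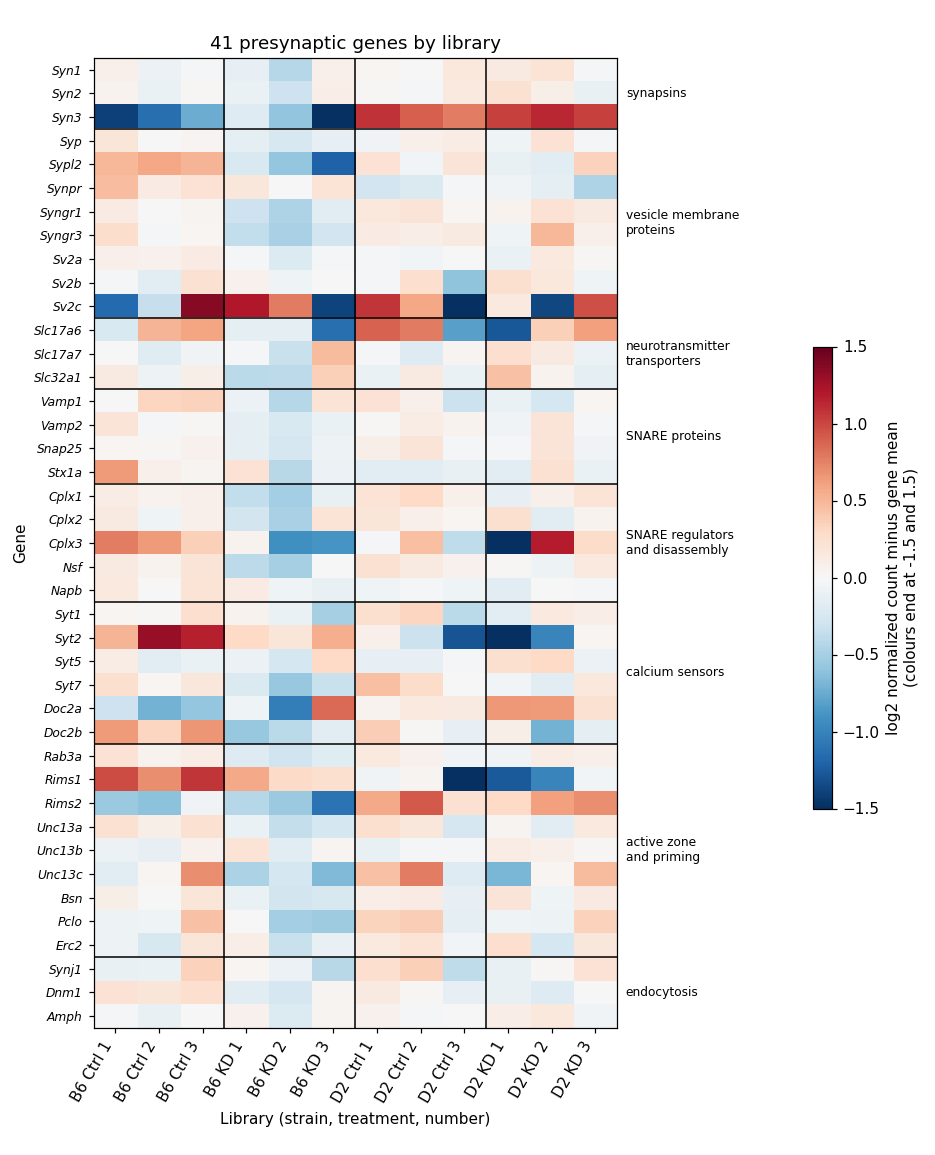
Log2 normalized count of each of the 41 presynaptic genes in each of the 12 libraries, minus the mean of that gene over all libraries, with genes grouped by role and colours that end at -1.5 and 1.5. Most genes are paler blue in the 3 B6 KD columns, Syn3 and Rims2 are red across D2, and Sv2c varies between single libraries of every group.

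The first comparison asked how knockdown of Hp1bp3 altered these genes in B6. Sypl2 and Doc2b were called lower, and none of the 41 genes was called higher. In edgeR's quasi-likelihood test with Benjamini-Hochberg adjustment over all genes tested, 2 of 41 genes were called at an adjusted p under 0.05, against 2.64% of all genes tested in either direction and 0.877% called lower. Most other members had lower means in KD without passing the threshold: 34 of 41 fitted changes were below 0, against 49.4% of all genes. Their median was -0.25 on the log2 scale, against 0.00 over all genes. All 3 KD libraries lay below all 3 Ctrl libraries for 18 of 41 members, against 16.2% of all genes tested, and all 3 lay above for 0 of 41, against 12.6% of all genes.

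Sypl2 (synaptophysin-like 2, or mitsugumin 29) belongs to the synaptophysin family and is best known from the junctional membranes of skeletal muscle. It lies on chromosome 3 (GRCm38, 108211472 to 108226648, minus strand) and had the lowest level per kb of the 41 genes. Its promoter is shown because Sypl2 was the called gene with the largest fall. The promoter is given as RefSeq lists it for GRCm38.p6 on the minus strand at chr3:108226600-108226849. It holds the 250 bases before the RefSeq start of transcription, 5′ to 3′, with its GC box in capitals. The gene position above is that of GENCODE M21, whose start differs, so the shown stretch partly overlaps the gene as placed there.
Sypl2: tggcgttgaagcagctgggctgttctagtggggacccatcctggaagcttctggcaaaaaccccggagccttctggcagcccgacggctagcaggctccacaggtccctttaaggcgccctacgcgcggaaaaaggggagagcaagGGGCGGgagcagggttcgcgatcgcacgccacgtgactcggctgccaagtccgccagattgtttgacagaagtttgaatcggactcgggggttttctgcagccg

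Sypl2 had 141, 149 and 143 normalized counts in B6 Ctrl and 85.6, 66.8 and 43.1 in B6 KD. In D2 it had 117, 97.6 and 114 in Ctrl and 92.8, 89.2 and 127 in KD. The B6 groups did not overlap, and the D2 groups did. Sypl2 fell by 54.3% in B6, a log2 fold change of -1.13 ± 0.24 (SE, edgeR adjusted p = 0.0433). The adjusted p ran from 0.000524 (DESeq2) to 0.0712 over the alternatives with all libraries, and leaving out single libraries kept the log2 fold change between -1.41 and -0.93, with 4 of 12 such fits still calling it. In D2 the log2 fold change was -0.09 ± 0.24 (edgeR adjusted p = 1), or -0.23 without D2 Ctrl 3 and D2 KD 3 (edgeR adjusted p = 0.758), and the difference between the strains was 1.04 ± 0.34 (edgeR adjusted p = 0.822).

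Doc2b is a soluble calcium sensor with high affinity that acts in spontaneous and asynchronous release. Its normalized count was 4961, 3973 and 5007 in B6 Ctrl and 2148, 2389 and 2855 in B6 KD. In D2 it was 4105, 3209 and 2916 in Ctrl and 3371, 1936 and 2881 in KD. The KD libraries were all lower in B6, while in D2 KD 2 lay well below the Ctrl libraries, KD 3 just below and KD 1 among them. Doc2b fell by 46.1% in B6, a log2 fold change of -0.89 ± 0.20 (SE, edgeR adjusted p = 0.0473). The adjusted p ran from 0.000867 (DESeq2) to 0.0757 over the alternatives with all libraries, and 4 of 12 fits without a single library called it. In D2 the log2 fold change was -0.32 ± 0.20 (edgeR adjusted p = 1), or -0.46 without D2 Ctrl 3 and D2 KD 3 (edgeR adjusted p = 0.434).

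Rab3a, the GTPase that links vesicles to RIM proteins, came next in B6 with 13361, 11972 and 12424 normalized counts in Ctrl and 10107, 9404 and 10168 in KD. All 3 KD libraries were lower, by a log2 fold change of -0.32 ± 0.08 (SE), which did not pass the threshold (edgeR adjusted p = 0.0556, range over alternatives with all libraries 0.000659 to 0.114). Syt7, a synaptotagmin of slow calcium-dependent release, had 15131, 12983 and 14326 in B6 Ctrl and 11019, 8577 and 10154 in B6 KD. It did not overlap between the groups either (log2 fold change -0.49 ± 0.13, edgeR adjusted p = 0.0722). The synaptogyrins Syngr1 and Syngr3, multi-pass proteins of the vesicle membrane, showed the same separation. Syngr1 had 17008, 15469 and 16049 in B6 Ctrl and 12531, 11275 and 13982 in B6 KD (log2 fold change -0.34 ± 0.09, edgeR adjusted p = 0.0746). Syngr3 had 4704, 3856 and 4007 in B6 Ctrl and 3039.7, 2796 and 3213 in B6 KD (log2 fold change -0.45 ± 0.13, edgeR adjusted p = 0.0915).

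By role, the counts of separated genes in B6 stand beside 16.2% of all genes tested with KD below Ctrl in every library. The roles hold 3 to 9 genes each, and no role was tested against that share. KD lay below Ctrl in every library for 5 of 8 vesicle membrane proteins, 2 of 4 SNARE proteins, 3 of 5 SNARE regulators, 2 of 6 calcium sensors, 5 of 9 active zone and priming genes and 1 of 3 endocytosis genes. Among synapsins and transporters the count was 0 of 3 in each. Besides those described, the separated genes were Syp, Sv2a, Vamp2, Snap25, Cplx1, Cplx3, Nsf, Rims1, Unc13a, Unc13c, Bsn and Dnm1. The 4 SNARE proteins had log2 fold changes of -0.33 to -0.17 and the 5 SNARE regulators of -1.08 to -0.11, with adjusted p above the threshold throughout. Fitted changes above 0 were found for Syn3, Sv2c, Slc17a7, Syt5, Doc2a, Unc13b and Amph, none of which was called.

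**Figure D3:**
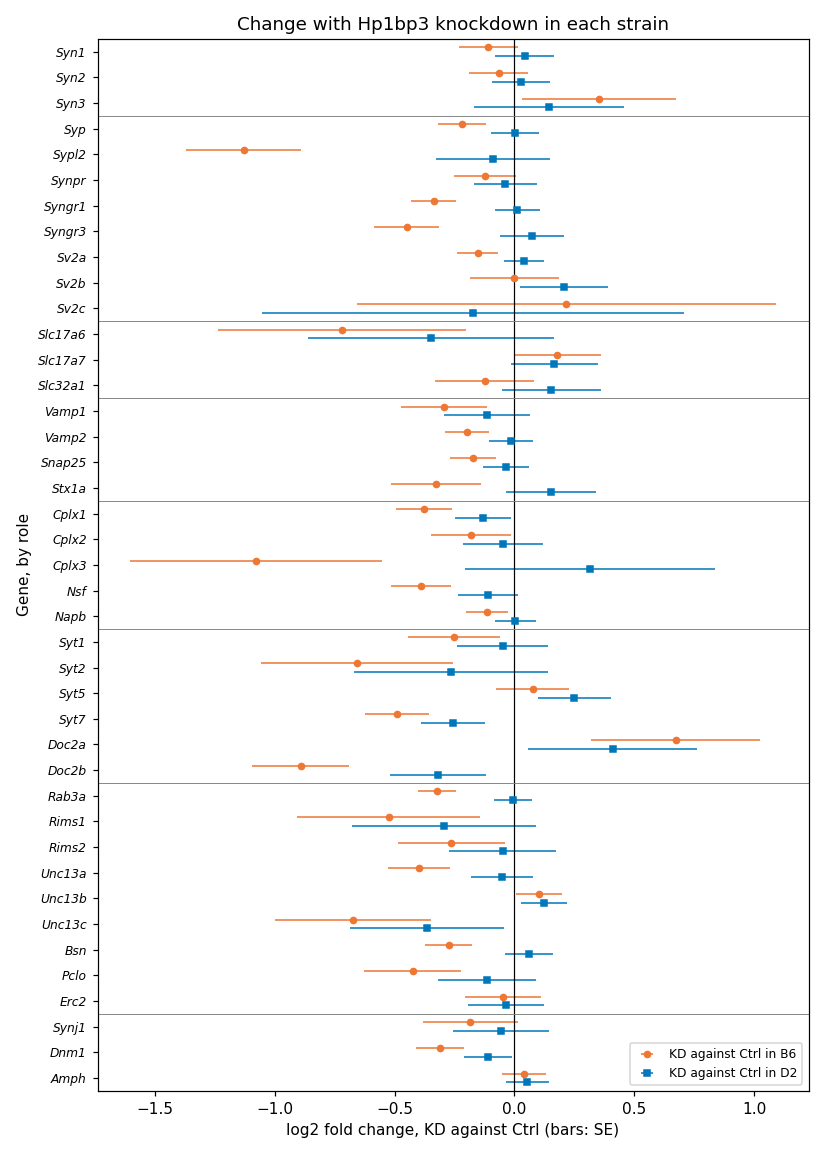
Log2 fold change of KD against Ctrl with its SE (bars) for the 41 presynaptic genes by role, in B6 (circles) and D2 (squares), from the edgeR fit. In B6, 34 of 41 points lie below 0, with Sypl2 at -1.13 and Doc2b at -0.89, and in D2 the points lie between -0.36 and 0.41.

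The library B6 KD 3 had more Hp1bp3 (7633) than KD 1 (5539) and KD 2 (5429). Its interferon score was 4.99, against 5.935 in KD 1 and 6.38 in KD 2. This library also differed from KD 1 and 2 in several of these genes. It had the most Slc17a7 of all 12 libraries, 59260 normalized counts against 41956 and 33886 in KD 1 and 2. It also had the most Doc2a, a relative of Doc2b, with 996 against 530 and 268, and the least Sypl2 and Syt1. Without B6 KD 3, edgeR called 7 of 41 members in B6 (Cplx1, Dnm1, Doc2b, Nsf, Rab3a, Syngr1 and Sypl2), all lower in KD. Of all genes tested it called 4.94% in either direction, and 299 of 15990 lower. DESeq2 with all libraries called 11 of 41, all lower. Of all genes tested it called 10.6% in either direction, and 773 of 15853 lower. The number of called members in B6 thus depended on the test and on single libraries, whereas the median log2 fold change stayed between -0.27 and -0.19 over the alternatives with all libraries. In the same B6 comparison the interferon score was higher in all KD libraries, as given above, and 3 other marker scores did not overlap between the groups. Microglia markers were at 4.90 to 5.11 in Ctrl and 5.42 to 6.15 in KD, 9 astrocyte markers at 8.13 to 8.15 in Ctrl and 8.38 to 8.67 in KD, and 12 markers of excitatory neurons of the hippocampal subfields at 5.65 to 5.84 in Ctrl and 5.40 to 5.61 in KD. Within the astrocyte list, Gfap, Aqp4, Aldh1l1 and Sox9 were higher in every KD library. Aldoc and S100b were lower in every KD library, and the other astrocyte markers overlapped. The neuron score overlapped, but single neuron markers did not all do so. Rbfox3, Eno2, Elavl3, Elavl4, Thy1 and Camk2a were lower in every KD library, while the other neuron markers overlapped. Rbfox3, for example, had 7095 to 8641 normalized counts in B6 Ctrl and 4572 to 6112 in B6 KD. The part of these scores and markers in the lower presynaptic counts was not tested.

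The second comparison was of KD with Ctrl in D2. By edgeR 0 of 41 members were called, against 0.0% of all genes tested, and DESeq2 and limma-voom called 0 of 41 as well. At an unadjusted p under 0.05 there were also 0 of 41 members, against 2.85% of all genes tested. The median log2 fold change was -0.03, against 0.00 over all genes, and 23 of 41 fitted changes were below 0. No member had all 3 KD libraries below all 3 Ctrl libraries, against 3.06% of all genes tested. All 3 lay above for 2 of 41, against 2.99% of all genes, and these were Doc2a and Unc13b.

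The 3 members with the smallest p in D2 were Syt7, Syt5 and Doc2b. Syt7 had 17506, 15388 and 12697 normalized counts in D2 Ctrl and 12447, 11396 and 14280 in D2 KD (log2 fold change -0.25 ± 0.13, edgeR adjusted p = 1). The only overlap was that of D2 KD 3 with D2 Ctrl 3. Syt5, a synaptotagmin of vesicle membranes, had 2802, 2792 and 3019.8 in D2 Ctrl and 3610.01, 3749.6 and 2866 in D2 KD (log2 fold change 0.25 ± 0.15, edgeR adjusted p = 1). Here too D2 KD 3 was with the Ctrl libraries. Without D2 Ctrl 3 and D2 KD 3 the log2 fold change was -0.45 for Syt7 (edgeR adjusted p = 0.207) and 0.41 for Syt5 (edgeR adjusted p = 0.318).

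Leaving out D2 Ctrl 3 and D2 KD 3 together, an alternative added after the data were seen, left 2 mice a group in D2. With these 10 libraries edgeR called 1 of 41 members in D2, against 0.224% of all genes tested, and that member was Rims1 (log2 fold change -1.10, adjusted p = 0.0385). At an unadjusted p under 0.05 this fit had 5 of 41 members in D2 (1 higher and 4 lower in KD) in place of 0, against 15.1% of all genes tested. In B6 the same fit called 6 of 41, against 5.66% of all genes tested, adding Rab3a, Rims1, Syt7 and Unc13a to Sypl2 and Doc2b. The B6 libraries were the same in both fits, and the 4 groups share 1 estimate of the spread.

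Averaged over both strains, 0 of 41 members were called by edgeR for KD against Ctrl, against 0.0% of all genes tested. An unadjusted p under 0.05 was found for 10 of 41, all lower in KD, against 19.2% of all genes tested in either direction. DESeq2 called 6 of 41 (Cplx1, Dnm1, Doc2b, Rab3a, Sypl2 and Syt7), all lower, and limma-voom called 0 of 41. Of all genes tested DESeq2 called 7.83% in either direction, and 591 of 15853 lower. Doc2b (log2 fold change -0.61 ± 0.14, edgeR adjusted p = 0.0678), Syt7 (-0.37 ± 0.09, adjusted p = 0.0798) and Sypl2 (-0.61 ± 0.17, adjusted p = 0.0951) had the smallest p. The median over the members was -0.11, against 0.01 over all genes. Without D2 Ctrl 3 and D2 KD 3, edgeR called 6 of 41 (Doc2b, Rims1, Syt2, Syt7, Unc13a and Unc13c), all lower. Of all genes tested it called 9.81% in either direction, and 648 of 16047 lower.

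Whether the effect of KD differed between strains was tested by the interaction. By edgeR 0 of 41 members were called, against 0.0% of all genes tested, and DESeq2 and limma-voom also called 0 of 41. At an unadjusted p under 0.05 there were 5 of 41, against 5.91% of all genes tested, and all 5 had a more positive KD effect in D2 than in B6. The fitted difference was above 0 for 37 of 41 members, against 49.65% of all genes. Its median was 0.21 over the members, against -0.0017 over all genes. These differences are built from the same libraries as the KD effects in B6 and D2. Sypl2, Rab3a and Syngr3 had the smallest p. Rab3a in D2 had 12798, 12049.5 and 11147 normalized counts in Ctrl and 11142, 12466 and 12148 in KD, with overlapping ranges, and its difference between strains was 0.32 ± 0.11 (edgeR adjusted p = 0.822). Syngr3 in D2 had 4275, 4219 and 4308 in Ctrl and 3765, 5529.6 and 4139 in KD, and its difference was 0.52 ± 0.19 (edgeR adjusted p = 0.822). The KD libraries of Syngr3 in D2 lay on both sides of the Ctrl libraries. A separation in B6 beside an overlap in D2 does not by itself show that the strains responded differently, and the test of that difference called no member.

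Counts of some of these genes differed between the strains, each of which was aligned to its own genome. In Ctrl mice edgeR called 5 of 41 members between D2 and B6, against 14.0% of all genes tested: Syn3 and Rims2 were higher in D2, and Rims1, Syt2 and Synpr were lower. Averaged over treatments it called 6 of 41, the same 5 and Syngr1, against 21.3% of all genes tested. All 6 D2 libraries lay apart from all 6 B6 libraries for 5 of 41 members, against 14.4% of all genes tested, and these were again Syn3, Rims2, Rims1, Syt2 and Synpr. The calls in Ctrl and the averaged calls share the Ctrl libraries. Members were not called more often than genes in general in either comparison, and their median log2 difference was -0.01 in Ctrl and 0.09 averaged, against 0.02 over all genes in each.

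**Figure D4:**
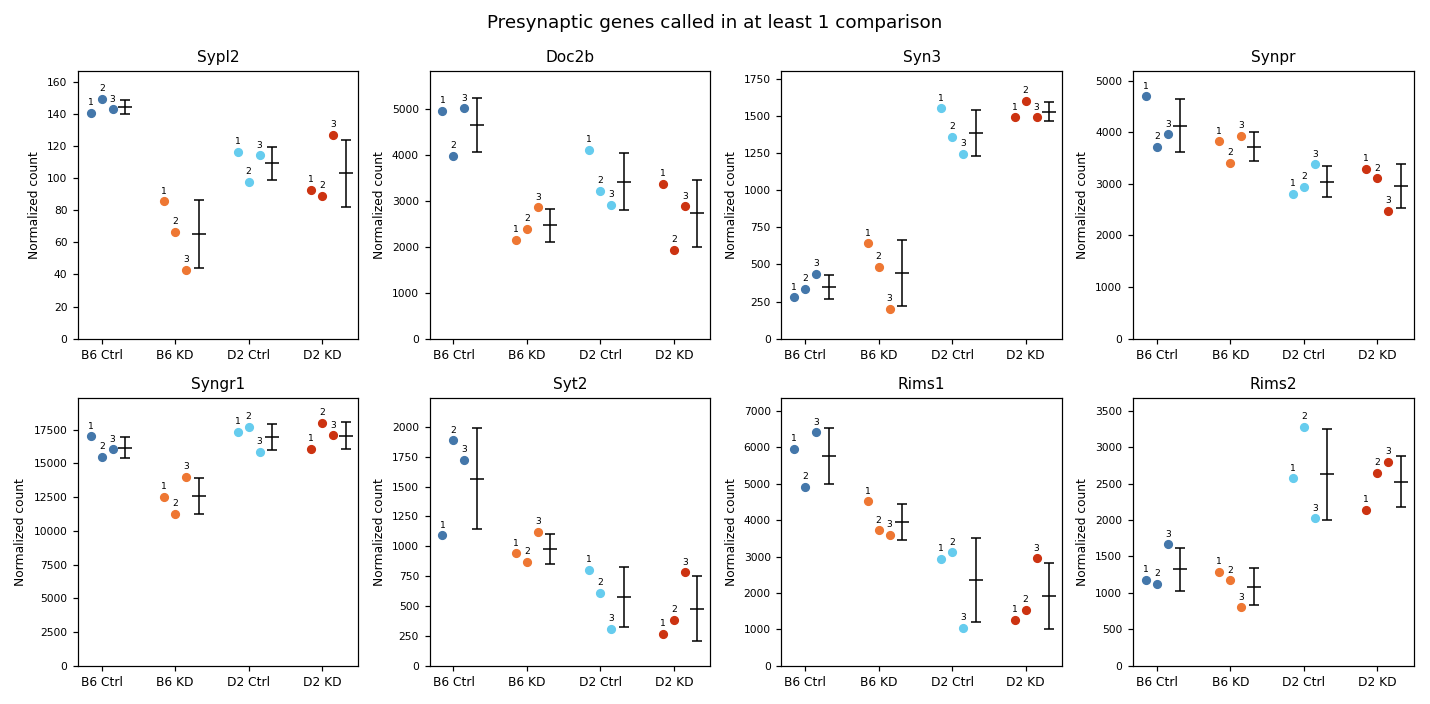
Normalized count in each library (points, numbered by replicate) with the group mean and SD (bars, n = 3) for the 8 presynaptic genes called in at least 1 comparison, on axes from 0. Sypl2 and Doc2b separate B6 KD from B6 Ctrl, and Syn3, Synpr, Syt2, Rims1 and Rims2 separate all 6 D2 from all 6 B6 libraries.

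Rims1 and Rims2 encode large RIM proteins, the active zone scaffolds that bind Rab3, Munc13 and calcium channels. Rims1 lies on chromosome 1 (GRCm38, 22286251 to 22805994, minus strand). The promoter of Rims1 is shown beside that of Sypl2 as that of a gene called between the strains. RefSeq lists it for GRCm38.p6 on the minus strand at chr1:22806159-22806408, and GC boxes are again in capitals.
Rims1: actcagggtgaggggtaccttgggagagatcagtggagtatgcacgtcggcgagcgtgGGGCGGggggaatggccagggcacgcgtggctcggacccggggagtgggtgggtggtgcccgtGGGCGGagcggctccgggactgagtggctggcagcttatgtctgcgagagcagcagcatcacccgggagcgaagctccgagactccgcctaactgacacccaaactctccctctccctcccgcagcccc

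The GC box was searched as GGGCGG on both strands in the 250 bases before each start. It was present in 22 of 42 promoters listed for 32 of the 41 genes, which is 52.4%, and in 32.7% of the 32851 promoters of all genes. The TATA box, searched as TATAAA on both strands, was in 2 of the 42 promoters (4.76%), both of Sv2b, and in 12.4% of all promoters. These matches describe the sequences only.

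Rims1 had 5965, 4912 and 6410.5 normalized counts in B6 Ctrl and 4512, 3717 and 3595 in B6 KD. In D2 it had 2934, 3118 and 1036 in Ctrl and 1269, 1531 and 2950.2 in KD. Every D2 library was below every B6 library, and within D2 the libraries Ctrl 3, KD 1 and KD 2 were lower than the other 3. The log2 difference of D2 to B6 was -1.29 ± 0.39 in Ctrl (SE, edgeR adjusted p = 0.0496, called in 1 of 12 fits without a single library) and -1.17 ± 0.27 averaged over treatments (adjusted p = 0.00906, called in 12 of 12). Without D2 Ctrl 3 and D2 KD 3 the difference in Ctrl was -0.93 (edgeR adjusted p = 0.00275).

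Rims2 went the other way. It had 1176, 1128 and 1668 normalized counts in B6 Ctrl and 1291, 1173 and 801 in B6 KD, against 2575, 3279 and 2022 in D2 Ctrl and 2138, 2649.9 and 2797 in D2 KD. The 2 strains did not overlap, and Rims2 was higher in D2 by 1.09 ± 0.16 on the log2 scale averaged over treatments (edgeR adjusted p = 0.000386). In Ctrl alone the log2 difference was 0.99 ± 0.22 (edgeR adjusted p = 0.0120, called in 9 of 12 fits without a single library). Per kb of exon, Rims1 stood at 4.47 to 7.16 times the level of Rims2 in the B6 libraries and at 0.723 to 1.61 times in the D2 libraries, a ratio chosen after the values were seen.

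The 3 D2 libraries low in Rims1 also differed in Prox1, a transcription factor of dentate granule cells. Prox1 had 254 normalized counts in D2 Ctrl 3, 470.2 in D2 KD 1 and 212 in D2 KD 2, against 1539, 1006 and 1079 in the other D2 libraries and 2033 to 3414 in B6. A score of 4 granule cell genes (Prox1, C1ql2, Dock10 and Lct) was 5.04, 5.30 and 4.36 in the same 3 libraries, against 5.34 to 5.92 in the rest of D2 and 5.59 to 6.35 in B6. Of these genes C1ql2 did not follow Prox1, with 1472 in D2 Ctrl 3 and 2342 in D2 KD 1 against 732 to 982 in the other 4 D2 libraries. The correlation of exon length with the deviation of a library from its strain mean, across 14113 genes, which are not independent replicates, was -0.30 in D2 Ctrl 3, -0.17 in D2 KD 1 and -0.16 in D2 KD 2, against 0.19 to 0.33 in the other D2 libraries. In B6 this correlation ran from -0.21 in KD 3 to 0.29 in Ctrl 3. The part of Prox1 and of exon length in the Rims1 counts was not tested, nor was that of exon length in the B6 comparison.

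**Figure D5:**
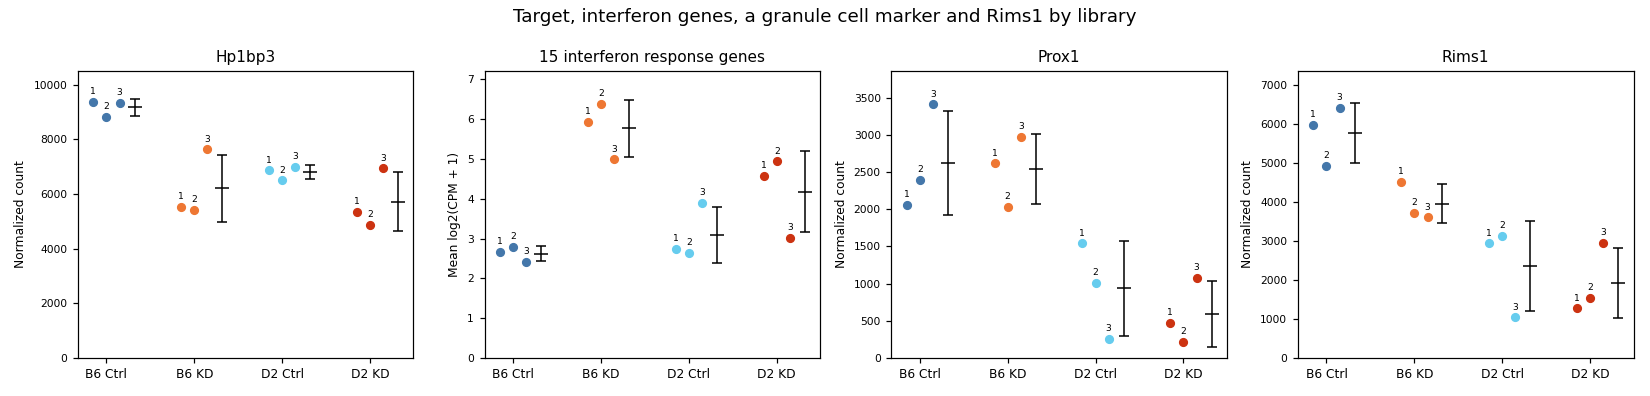
Normalized count of Hp1bp3, mean log2(CPM + 1) of 15 interferon response genes, and normalized counts of Prox1 and Rims1 in each library (points, numbered by replicate), with the group mean and SD (bars, n = 3). D2 KD 3 lies with D2 Ctrl 1 and 2 in all 4 panels, and D2 Ctrl 3 lies nearer to D2 KD 1 and 2 in interferon score (3.90), Prox1 and Rims1 but not in Hp1bp3 (7002).

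Syt2, the fast calcium sensor of hindbrain synapses and of parvalbumin interneurons, followed a similar order. It had 1093, 1886 and 1724 normalized counts in B6 Ctrl and 943, 870.4 and 1119 in B6 KD. In D2 it had 806, 613 and 311 in Ctrl and 266, 387 and 783 in KD. All D2 libraries were lower than all B6 libraries, although D2 Ctrl 1 at 806 came close to B6 KD 2 at 870.4. The log2 difference of D2 to B6 was -1.44 ± 0.41 in Ctrl (SE, edgeR adjusted p = 0.0375) and -1.25 ± 0.29 averaged over treatments (adjusted p = 0.00868). In Ctrl it was called in 6 of 12 fits without a single library, with adjusted p of 0.00300 to 0.0916 over the alternatives with all libraries, and averaged over treatments in 12 of 12. Without D2 Ctrl 3 and D2 KD 3 the difference in Ctrl was -1.15 (edgeR adjusted p = 0.0214). Pvalb, the parvalbumin gene, overlapped between the strains, with 668 to 781 normalized counts in B6 Ctrl and 502 to 862 in D2 Ctrl. In KD it had 454, 357 and 815 in B6 and 407, 527 and 720 in D2. Within D2, Pvalb was lowest in Ctrl 3, KD 1 and KD 2, the same libraries that were lowest in Syt2. The part of parvalbumin cells in the Syt2 counts was not tested. Interneuron markers as a list of 12 genes scored 5.80 to 6.12 in D2 and 6.10 to 6.52 in B6. Among them Erbb4 had 928 to 1960 normalized counts in B6 and 37.7 to 76.5 in D2. Without Erbb4, which was singled out after its values were seen, the other 11 scored 6.22 to 6.56 in D2 and 6.15 to 6.59 in B6.

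Synpr (synaptoporin), a synaptophysin relative that is abundant in the mossy fibre terminals of granule cells, showed a smaller difference. Its normalized count was 4698, 3713 and 3962 in B6 Ctrl and 3828, 3406 and 3932 in B6 KD, against 2802, 2945 and 3380.4 in D2 Ctrl and 3294, 3110.2 and 2476 in D2 KD. The strains did not overlap, but D2 Ctrl 3 at 3380.4 lay just under B6 KD 2 at 3406. The log2 difference was -0.44 ± 0.13 in Ctrl (edgeR adjusted p = 0.0471) and -0.39 ± 0.09 averaged over treatments (adjusted p = 0.00907). The call in Ctrl held in 5 of 12 fits without a single library, and its adjusted p ran from 0.0125 to 0.168 over the alternatives with all libraries (limma-voom 0.0505), whereas the averaged call held in 12 of 12. Without D2 Ctrl 3 and D2 KD 3 the difference in Ctrl was -0.53 (edgeR adjusted p = 0.0146). Synpr was highest within D2 in D2 Ctrl 3, the library with the least Rims1.

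Syn3, the synapsin most abundant early in development, showed the largest difference between strains among the members. It had 278, 336 and 436 normalized counts in B6 Ctrl and 642, 484 and 201 in B6 KD, against 1555, 1362 and 1245 in D2 Ctrl and 1492, 1603 and 1493 in D2 KD. The lowest D2 library was well above the highest B6 library. Syn3 was higher in D2 by 1.99 ± 0.33 on the log2 scale in Ctrl (edgeR adjusted p = 0.00161) and by 1.88 ± 0.23 averaged over treatments (adjusted p = 0.000108), and all 12 fits without a single library called it in both comparisons. The exons of Syn3 overlap those of Timp3 on the other strand over 14.1% of their length, and the strand setting of the counting is not given in the sources used here. Timp3 itself had a log2 difference of 0.08 ± 0.16 (edgeR adjusted p = 0.803). By contrast Syn1 and Syn2, the abundant synapsins, had log2 differences of 0.15 ± 0.09 and 0.10 ± 0.09 averaged over treatments, and neither was called.

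Syngr1 was called only in the average over treatments, higher in D2 by 0.24 ± 0.07 on the log2 scale (edgeR adjusted p = 0.0213, called in 9 of 12 fits without a single library). In D2 it had 17324, 17721 and 15855 normalized counts in Ctrl and 16088, 18024 and 17087 in KD. Against the B6 values given above, the Ctrl groups overlapped and the KD groups did not, and the difference in Ctrl alone was not called. Doc2a was at 338 to 445 in B6 Ctrl and at 575 to 612 in D2 Ctrl, a difference that was not called (edgeR adjusted p = 0.205 averaged over treatments). Its exons overlap those of Ino80e over 39.4% of their length, and Ino80e was lower in D2 by a log2 difference of -1.46 ± 0.08 (edgeR adjusted p = 1.21e-07), so that the counts of both genes are uncertain. The other 34 members had log2 differences averaged over treatments of -0.19 to 0.31 and were not called.

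The wider presynaptic machinery was read from a list of 95 further genes, of which 91 were in the table and 90 were tested. By edgeR 0 of 90 were called for KD against Ctrl in B6, in D2 or averaged over strains. At an unadjusted p under 0.05 there were 15, 4 and 14 of 90 in that order, which is 16.7%, 4.44% and 15.6%, against 20.6%, 2.85% and 19.2% of all genes tested. DESeq2 called 7, 0 and 6 of 90, against 10.6% of all genes in B6 and 7.83% averaged over strains. Limma-voom called 1 of 90 in B6, against 2.32% of all genes, and 0 of 90 in the others. Their median log2 fold change in B6 was -0.04, closer to the 0.00 of all genes than the -0.25 of the 41 members. KD lay below Ctrl in all B6 libraries for 12 of 90, which is 13.3% against 16.2% of all genes, and above for 6 of 90, which is 6.67% against 12.6%. For the interaction, 0 of 90 were called by edgeR and 5 of 90 had an unadjusted p under 0.05, which is 5.56% against 5.91% of all genes.

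Between the strains, 8 of 90 further genes were called in Ctrl (1 higher and 7 lower in D2), which is 8.89% against 14.0% of all genes tested. Averaged over treatments it was 12 of 90 (3 higher and 9 lower), which is 13.3% against 21.3%. These shares were below those of all genes. Rims3 and Rims4 encode short RIM proteins that lack the domains for Rab3 and Munc13. Rims3 had 3373 ± 371 normalized counts in B6 Ctrl and 278 ± 80.9 in D2 Ctrl (SD, n = 3), a log2 difference of -3.61 ± 0.35 (SE, edgeR adjusted p = 3.17e-05). Rims4 had 2711 ± 371 in B6 Ctrl and 288 ± 42.0 in D2 Ctrl, a log2 difference of -3.24 ± 0.14 (edgeR adjusted p = 5.59e-08). Stxbp5l (tomosyn 2), which binds SNARE proteins and restrains their assembly, was higher in D2, with 407 ± 188 in B6 Ctrl and 5369 ± 939 in D2 Ctrl, a log2 difference of 3.72 ± 0.33 (edgeR adjusted p = 1.52e-05). All 3 were called averaged over treatments as well, with log2 differences of -3.34, -3.08 and 3.68. Thus the counts of 4 RIM genes, Rims1, Rims3, Rims4 and Rims2, differed between strains, the first 3 lower and Rims2 higher in D2. In these differences too, strain and reference genome cannot be told apart.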

How the data were processed

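mRNA libraries of 12 hippocampi were prepared with the KAPA mRNA Hyper Prep Kit. Per the labels and the study's methods, the authors filtered and trimmed reads, used a B6 or D2 reference genome according to strain, and obtained expected counts per gene with RSEM 1.2.12 and Bowtie2 2.2.0 (unnormalized). A second deposited table gives a signal, the authors' DESeq2 normalized count, printed here for single libraries. Reads of 2 sequencing runs were joined for most samples. Dividing out 1 factor a library gave whole reads for 100% of 266508 values (within 0.01 read). The builds GRCm38 and mm10 are named without a role. Positions, exon lengths and overlaps come from GENCODE M21 (GRCm38), and promoters from RefSeq (GRCm38.p6).

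Expected counts were rounded and filtered with filterByExpr, and 15853 of 22236 genes were tested with edgeR 4.0.16 (quasi-likelihood F-test, TMM, robust, 4 group means, all 12 libraries) in R 4.3.3. A gene was called where its p, adjusted by Benjamini-Hochberg over all genes tested, was under 0.05. The SE is the fold change over the square root of F and is approximate. Overlap was read from normalized counts, for the 15828 tested genes found there by symbol. Replicate pairs differed beyond sampling noise (chi-square per degree of freedom 22.4 to 106). Alternatives were DESeq2 1.42.0, limma-voom (limma 3.58.1), RLE size factors, no filter, edgeR's newer quasi-likelihood method, total count or choroid score as covariate, each library left out, and, added after the data were seen, recovered whole reads and leaving out D2 Ctrl 3 and D2 KD 3. The fits were also run on simulated counts with 1 spread for all genes and no library standing apart. That run checks the code and cannot show how the fits behave with the libraries that stand apart here. At these depths the spread between libraries of a group, each from 1 mouse, limits precision more than counting.

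The 41 members and all lists were chosen with earlier results of these data known. Named were members called in any comparison and the 3 with the smallest p in each, and of the further presynaptic genes at most 3 called ones a comparison with the largest change and a mean CPM of at least 1. Members singled out otherwise were chosen after their values were seen. Gene symbols turned into dates (27) were restored from identifiers. Libraries are numbered in order of deposit, and numbers pair nothing.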

Additional observations from a re-analysis of the deposited data

How the results depend on the processing

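Members named by the rule kept the direction of their log2 fold change, in the comparisons that named them, under every alternative run, but counts of called genes moved. In D2, where the rule did not name it, Sypl2 (-0.09) ran from -0.27 to 0.0029 with single libraries left out. Percentages in brackets are the shares of all genes tested that the same fit called, and they are not given for the other alternatives. For KD against Ctrl averaged over strains, 0 members were called by edgeR (0.0%), 6 by DESeq2 (7.83%) and 6 without D2 Ctrl 3 and D2 KD 3 (9.81%). Single libraries left out gave 0 to 3. In B6 the count of 2 (2.64%) became 11 by DESeq2 (10.6%), 1 without the low-count filter, 0 with total count as a covariate and 0 with the choroid score as a covariate. It became 6 without D2 Ctrl 3 and D2 KD 3 (5.66%), and 0 to 7 with single libraries left out, the 7 being without B6 KD 3 (4.94%). In D2 the count of 0 (0.0%) became 1 without D2 Ctrl 3 and D2 KD 3 (0.224%). Between strains in Ctrl the count of 5 (14.0%) became 3 without the filter, 1 with total count and 2 with the choroid score as a covariate, and 1 to 5 with single libraries left out. Averaged over treatments the count of 6 (21.3%) ran from 5 to 10, the 10 being without B6 KD 3 (23.05%). Of the 90 further genes, KD averaged over strains called 0 in edgeR (0.0%), 6 by DESeq2 (7.83%), 10 without D2 Ctrl 3 and D2 KD 3 (9.81%), and 0 to 2 with single libraries left out. In B6 it called 0 in edgeR (2.64%), 7 by DESeq2 (10.6%), and 1 each by limma-voom (2.32%), RLE size factors and the newer quasi-likelihood method. It called 2 without D2 Ctrl 3 and D2 KD 3 (5.66%), and 0 to 3 with single libraries left out. The cause of these moves was not tested. The exact permutation p of the Hp1bp3 difference was 0.015 in total-count CPM (-0.37) and 0.005 to 0.035 with single libraries left out, while edgeR did not call it. No paired analysis was possible because the labels give no replicate numbers. Groups of 3 mice limit all comparisons, and the labels of D2 KD 3 and D2 Ctrl 3 could not be checked further.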

Other observations

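The libraries differed in how far the 41 presynaptic genes as a whole lay from their means over all 12 libraries. The median deviation on the log2 scale was lowest in B6 KD 2, at -0.31, followed by B6 KD 1 (-0.09) and B6 KD 3 (-0.08), and highest in B6 Ctrl 3, at 0.16. In D2 it ran from -0.04 in KD 1 to 0.11 in Ctrl 1. The library B6 KD 2 also had the lowest score of 14 neuron markers, 8.63, but B6 KD 3 at 8.93 was within the B6 Ctrl range of 8.85 to 9.03, and B6 KD 1 at 8.84 was just below it. Without B6 KD 2 the median log2 fold change of the members in B6 was -0.20, against -0.25 with all libraries. Within the glutamatergic genes, the transporter Slc17a7 and the complexin Cplx2 were not low in B6 KD 3, which had the most Slc17a7 of any library (59260 normalized counts) and 60893 of Cplx2, whereas B6 KD 2 had the least Cplx2, at 37522.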
